A study of Homo sapiens with 22 samples.

Results

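The maturation of HUDEP-2 cells that lack BAZ1B was followed in 6 RNA-Seq libraries, 3 BAZ1B knockout (KO) subclones at D0 and the same numbered subclones at D6, out of 22 libraries in the series. Members were chosen by the labels alone, as the libraries named BAZ1B KO replicates 1 to 3 at D0 and D6 (KO1, KO2 and KO3 below). HUDEP-2 is an immortalized human line of erythroid progenitors that can be induced to mature in culture. The study asked how loss of histone H2A.X, or of BAZ1B (WSTF), the kinase of its tyrosine 142, alters gene expression and chromatin condensation late in erythroid maturation.

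At D0 the KO cells, like the 3 WT cultures that stand beside them, came from expansion medium with stem cell factor (SCF), erythropoietin (EPO), dexamethasone and doxycycline. At D6 both had spent 6 days in a differentiation medium with plasma, heparin, holo-transferrin, SCF, insulin, EPO and doxycycline, to which no dexamethasone was listed. Maturation and the exchange of medium therefore cannot be told apart in either genotype. Each KO line grew out of limiting dilution after CRISPR/Cas9 removal of a stretch from upstream of the start codon to beyond the first exon, and both copies carried the deletion. The study speaks of WT subclones, but the labels do not say whether these WT replicates were separate ones, so p-values measure the spread between these cultures. Cells were harvested in bulk, and fewer cells of a type and less RNA per cell cannot be told apart.

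Terminal erythroid maturation is the passage from a cycling, KIT-dependent progenitor to a small cell packed with hemoglobin. GATA1, TAL1 and KLF1 switch on globin, heme and membrane skeleton genes, while GATA2, KIT and genes of other blood lineages are shut off. Later the cell clears its ribosomes and mitochondria, and chromatin condenses before the nucleus is expelled.

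BAZ1B itself (chr7:73440406-73522293 on GRCh38, minus strand, a protein-coding gene) held 6556, 8349 and 7349 normalized counts in KO1, KO2 and KO3 at D0 and 7037, 7376 and 6817 at D6. The WT libraries held 9913, 9823 and 9703 at D0 and 9135, 9429 and 9104 at D6, above every KO library. Normalized counts are read counts divided by the library's effective size and brought to the mean size of the 12 libraries, and values are always given in the order of the replicate numbers. Only the start of the gene was deleted and reads elsewhere on it were still counted, so this level checks the labels weakly. BAZ1B did not pass the test between D0 and D6 in KO cells, with a log2 change of -0.07 ± 0.07 (adjusted p = 0.39). Over 20 alternatives the adjusted p ran from 0.006 to 0.67, and it passed with total-count scaling and without KO D0 replicate 1.

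The 6 KO libraries held 33199408 to 39624648 counted reads. Of 59087 named genes, 13879 had enough reads to be tested. The 3 KO subclones varied more among themselves than the WT cultures: the coefficient of biological variation was 0.144 at D0 and 0.111 at D6 in KO against 0.0294 and 0.0475 in WT. All 14 tested genes of an erythroid marker list rose in KO cells, and summed erythroid marker counts were 317600 to 335600 at D0 and 1292000 to 1522000 at D6. Summed markers of mast cells and eosinophils were 29460 to 37300 at D0 and 2587 to 5167 at D6. Of 14 lymphocyte markers, 9 were at 0 in all 3 KO libraries at D0 and 11 at D6. Summed megakaryocyte markers were 1520 to 2791 at D0 and 325.5 to 550.9 at D6, with VWF, PF4 and PPBP at 0 throughout the KO libraries. Granulocyte and monocyte markers summed to 274.9 to 671 and to 23.03 to 39.63, with MPO, ELANE, CTSG and S100A8 at 0 at both days.

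The whole KO programme was broad. At an adjusted p below 0.05, 4604 genes rose from D0 to D6, which is 33.2% of the genes tested, and 4788 fell, which is 34.5%. The counts given below for gene lists are to be read beside these shares. A differentially expressed gene (DEG) was taken here as one with an adjusted p below 0.001 and a log2 change beyond 1.5. The limit on p follows the study, whose methods do not say that it applies to adjusted values, so this rule may be the stricter one. By it 541 genes rose (3.9%) and 1052 fell (7.58%). Falls were the larger part of the strong changes. Scaling by total counts alone, with no allowance for the reads taken by abundant transcripts, moved the median change of all genes from -0.023 to -0.196, left 435 DEGs up and 1244 down, and moved the share of rises among changed genes from 49% to 33.6%. Fitted without the WT libraries, the 6 KO libraries gave 407 DEGs up and 804 down, and 484 and 965 when the subclone was a term of that fit.

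Globin genes led the rises. The list holds globin genes and the chaperone gene AHSP. All 10 members that could be tested rose, 8 of them as DEGs, with a median log2 change of 3.34 against -0.023 over all genes tested. HBB (chr11:5225464-5229395, minus strand), the adult beta globin, held 107460, 105760 and 124670 counts at D0 and 520280, 578430 and 589870 at D6, so each subclone at D6 stood above each at D0. Its log2 change was 2.32 ± 0.12 (adjusted p = 2.4e-09). The alpha globin genes HBA1 and HBA2, nearly identical copies between which reads may have been divided, rose by 3.79 ± 0.10 and 3.37 ± 0.13 on the log2 scale. HBA1 held 5983, 5508 and 5584 counts at D0 and 70267, 78811 and 86306 at D6. HBM, an alpha-like globin gene, went from 159, 311 and 285 to 4658, 5477 and 6409.9 counts, a 21.9-fold rise in the mean.

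Embryonic and fetal globin genes rose from few counts. HBZ, the embryonic zeta globin, held 5.91, 29.2 and 21.4 counts at D0 and 247, 223 and 323 at D6. HBG2, a fetal gamma globin whose near-identical neighbour is HBG1, held 21.7, 16 and 5.35 and then 167, 94 and 173. HBG1 had no read in the KO libraries at D0, and its 3.96, 0 and 1.05 counts at D6 passed the test only narrowly (adjusted p = 0.037). Over 17 alternative fits its adjusted p ran from 0.013 to 0.21, the latter without KO D6 replicate 1, and the call was also lost without any 1 of the 3 KO D0 libraries or WT D6 replicate 2. AHSP, the chaperone of free alpha globin, rose in every subclone, from 11265, 13152 and 12128 to 31535, 36634 and 38651.

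The heme pathway rose as a whole. All 9 enzyme genes tested passed, 4 as DEGs, with a median log2 change of 1.45. ALAS2, the erythroid enzyme of the first step, held 6948, 9470 and 7770.3 counts at D0 and 51327, 60471 and 69705 at D6, a log2 change of 2.91 ± 0.13 (adjusted p = 7.6e-10). FECH, which inserts the iron at the last step, went from 10699, 8891 and 9579.9 to 43527, 43028 and 46183. ALAS1, the housekeeping form of the first enzyme, rose least among these 9, by 0.81 ± 0.08 on the log2 scale.

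Genes of heme and iron handling were mixed, with 15 of 22 rising and 3 falling (median log2 change 0.89). TFRC, the transferrin receptor through which erythroblasts take up iron, held 144080, 126370 and 126430 counts at D0 and 397060, 427580 and 471270 at D6. SLC25A37, which carries iron into mitochondria, rose by 2.55 ± 0.13 on the log2 scale. ABCG2, an exporter of porphyrins, went from 6.9, 39.5 and 17.1 to 168, 462 and 316 counts, and was lowest in KO1 at both days. Ferritin heavy chain FTH1 rose by 0.70 ± 0.04, whereas the light chain FTL did not pass the test (0.04 ± 0.03, adjusted p = 0.34). Among the falls, the heme oxygenase HMOX1 went from 127, 272 and 225 to 26.8, 37.1 and 22 counts and the iron sensor ACO1 from 3855, 4226 and 4247 to 2546, 2731 and 2808.

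Red cell membrane and skeleton genes rose in 32 of 37 cases and fell in 5, with 16 DEGs up and 1 down and a median of 1.33. SLC4A1 (chr17:44248390-44268141, minus strand), the band 3 anion exchanger, was among the 8 largest rises of all well measured genes: 239, 77.2 and 177 counts at D0 and 67008, 79122 and 94407 at D6, a log2 change of 8.94 ± 0.28 (adjusted p = 6.0e-11). AQP1, the water channel, went from 27.6, 53.6 and 31 to 4189, 8767 and 8943. RHAG, the Rh-associated glycoprotein, rose from 18933, 18385 and 19055 to 34879, 38300 and 40087. CD36, a scavenger receptor of young erythroid cells, rose by 2.89 ± 0.04 and its KO libraries at D6 lay between 67560 and 73544 counts.

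The 5 members that fell, named here after their values were seen, were TPM4, CD47, ACTB, TPM3 and SLC14A1. TPM4, a tropomyosin of nonmuscle cells, dropped from 12031, 17061 and 15793 to 595, 558 and 292 counts, a 31.1-fold fall in the mean. CD47, the marker that protects cells from phagocytosis, fell by 1.47 on the log2 scale. SLC14A1, the urea transporter of red cells, fell from 1646, 1572 and 1773 to 1132, 1205 and 1346 counts, while the WT cultures rose from 1612, 1641 and 1720.5 to 1876, 1836 and 2381 (difference -0.73 ± 0.13, adjusted p = 0.015). The plot of list changes sets these groups against the middle 50% of all genes.

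**Figure D1:**
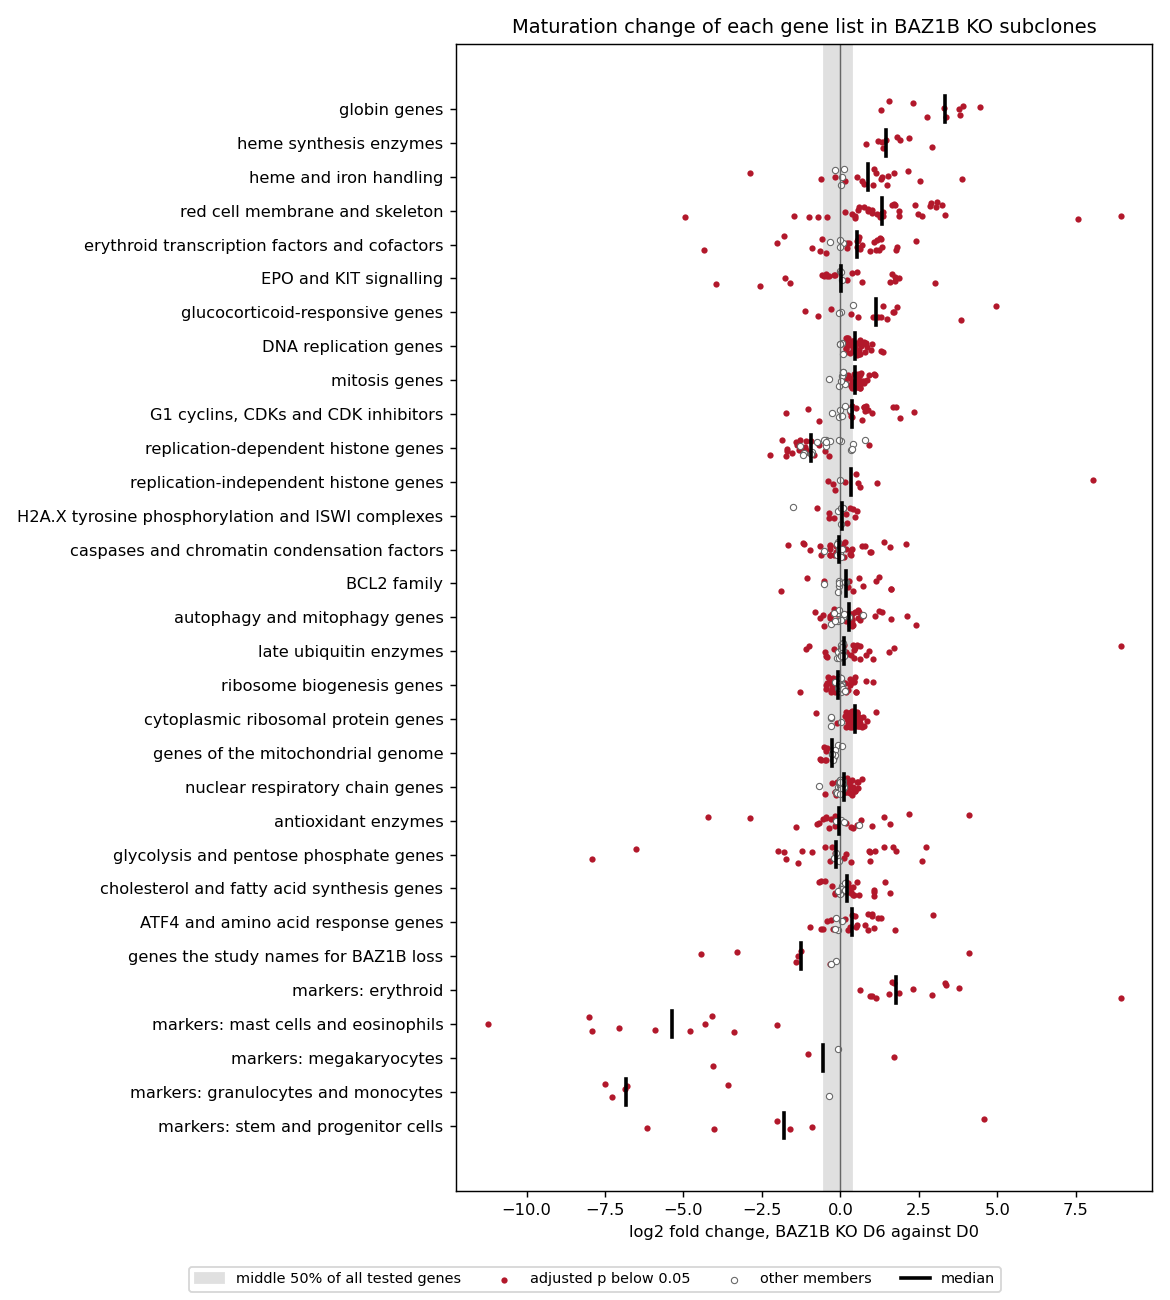
Each point is 1 tested gene, placed by its log2 fold change from D0 to D6 in the 3 BAZ1B KO subclones; rows are gene lists, filled points passed the test at an adjusted p below 0.05, open points did not, black bars are list medians and the grey band holds the middle 50% of all tested genes. The globin list, which includes AHSP, has the highest median (3.34) and granulocyte and mast cell markers the lowest (-6.83 and -5.35).

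Promoter windows are shown for genes whose change was large and whose window holds letters of a factor of this pathway; they were picked for those letters after the changes were known. Windows come from RefSeq on GRCh38.p14 and run from 250 bases before to 50 bases after the annotated start, on the gene's strand. Capitals mark letters bound by GATA1 or GATA2, searched as AGATAA and as its reverse complement, which reads TTATCT on the strand shown. They also mark TGAGTCA, the letters of NFE2, and CCACACCC, those of KLF1, each searched on both strands.
ALAS2, chrX:55030928-55031227, minus strand: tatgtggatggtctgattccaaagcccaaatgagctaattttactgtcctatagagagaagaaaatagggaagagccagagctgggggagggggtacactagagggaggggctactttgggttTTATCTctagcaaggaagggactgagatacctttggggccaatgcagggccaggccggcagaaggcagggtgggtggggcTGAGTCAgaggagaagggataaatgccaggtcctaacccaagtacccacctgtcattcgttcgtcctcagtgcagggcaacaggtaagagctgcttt
EPOR, chr19:11384265-11384564, minus strand: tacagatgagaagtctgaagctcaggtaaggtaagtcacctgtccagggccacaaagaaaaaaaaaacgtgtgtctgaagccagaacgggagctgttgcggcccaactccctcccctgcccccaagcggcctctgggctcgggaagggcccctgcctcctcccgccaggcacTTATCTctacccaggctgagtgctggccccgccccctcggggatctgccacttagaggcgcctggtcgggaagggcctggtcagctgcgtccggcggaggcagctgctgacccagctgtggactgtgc
TRIM10, chr6:30161162-30161461, minus strand: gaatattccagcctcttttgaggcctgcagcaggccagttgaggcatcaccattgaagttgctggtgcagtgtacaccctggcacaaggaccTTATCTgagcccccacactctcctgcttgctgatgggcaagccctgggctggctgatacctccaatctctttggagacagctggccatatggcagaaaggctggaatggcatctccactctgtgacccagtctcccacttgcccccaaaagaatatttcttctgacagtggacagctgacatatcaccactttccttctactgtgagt
CPA3, chr3:148865046-148865345, plus strand: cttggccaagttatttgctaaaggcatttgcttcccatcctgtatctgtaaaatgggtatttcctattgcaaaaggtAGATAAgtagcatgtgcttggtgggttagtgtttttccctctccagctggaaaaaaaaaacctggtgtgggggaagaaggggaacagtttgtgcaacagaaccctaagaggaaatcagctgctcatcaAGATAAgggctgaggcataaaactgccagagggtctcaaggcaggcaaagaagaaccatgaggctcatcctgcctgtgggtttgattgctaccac
MYO1F, chr19:8577393-8577692, minus strand: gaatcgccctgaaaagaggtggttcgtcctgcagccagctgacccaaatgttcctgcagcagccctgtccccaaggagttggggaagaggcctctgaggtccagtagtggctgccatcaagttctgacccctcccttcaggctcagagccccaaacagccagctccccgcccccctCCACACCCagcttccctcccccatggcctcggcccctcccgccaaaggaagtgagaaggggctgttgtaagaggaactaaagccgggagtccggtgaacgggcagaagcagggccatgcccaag

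ALAS2, EPOR and TRIM10 rose, and their GATA letters begin 127, 78 and 158 bases before the start. CPA3 fell and holds such letters at 2 places, 173 and 45 bases before the start, and MYO1F fell and holds the KLF1 letters 74 bases before it. GATA letters on either strand were present in 11.1% of 549 windows of DEGs that rose, 6.81% of 1116 windows of DEGs that fell and 5.8% of 14094 windows of all tested genes with an entry (9800 genes). The NFE2 letters were in 5.46% and 6.36% of DEG windows up and down against 3.4% of all, and the KLF1 letters in 3.28% and 4.57% against 3.19%. For E2F, TTTCCCGC on either strand was in 1.46% of DEG windows up, 1.43% down and 2.5% of all. Among genes called at an adjusted p below 0.05 it was in 3.28% of 5084 windows of rises and 1.69% of 5144 windows of falls. The E-box CACGTG, its own reverse complement, was in 6.56% of DEG windows up, 7.26% down and 9.93% of all, and the NFY letters CCAAT on either strand in 29.1%, 26.6% and 35%. Windows of 1 gene with several starts overlap, and a match in letters is a description of the window, not evidence of binding.

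Erythroid transcription factors and cofactors rose in 21 of 32 cases and fell in 7 (median log2 change 0.55). GATA1, the master regulator of the lineage, held 6073, 5334 and 5693 counts at D0 and 12243, 12470 and 12494 at D6. KLF1 went from 17463, 17820 and 18560 to 34404, 35708 and 34390 and TAL1 from 5785, 5842 and 5997 to 13556, 15069 and 15867. In all 3 genes the D0 and D6 values did not overlap, and the rise was near 1.94- to 2.52-fold. NFE2, a factor of globin gene activation, rose by 1.18 ± 0.06 on the log2 scale, and SOX6 and BCL11A, repressors of fetal globin, by 2.41 ± 0.15 and 1.07 ± 0.07. KLF13 and the stress response factor FOXO3 rose by 1.82 ± 0.08 and 1.29 ± 0.07.

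Factors of the progenitor state moved the other way. GATA2, which GATA1 replaces at shared sites, fell from 12106, 9492 and 10808 to 3704, 2135 and 2118 counts, with KO1 the highest of the D6 libraries. SPI1 (PU.1), a myeloid factor that opposes GATA1, fell from 1129.9, 1396 and 1360.1 to 75.3, 76.6 and 40.8, by 4.33 on the log2 scale (adjusted p = 7.1e-10). MYB, a progenitor factor, dropped from 14901, 15120 and 16073 to 8785, 7898 and 8011. STAT5B, the signal carrier below the EPO receptor, was at 6512, 5964 and 6242 and then 6149, 6239 and 6152 counts and did not pass the test.

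EPO and KIT signalling genes were divided, 10 of 24 rising and 11 falling (8 and 14 with total-count scaling). Shares over all genes were 33.2% rising and 34.5% falling. EPOR, the EPO receptor, rose in a tight band from 3178, 2939.9 and 3086 to 9464, 9696 and 9606 counts. CISH and ERFE, targets of STAT5 (ERFE encodes erythroferrone, which lowers hepcidin), rose by 1.74 ± 0.08 and 3.01 ± 0.08 on the log2 scale, and the adaptor GAB1 by 1.86 ± 0.05. KIT, the SCF receptor, held 27919, 27375 and 30280 counts at D0 and 12697, 6807 and 8696 at D6; the KO1 value at D6 was the highest of the 3 KO and 3 WT libraries of that day. The phosphatase PTPN6 (SHP-1), which damps both receptors, fell from 3334, 5194 and 4608 to 214, 381 and 255, and the ubiquitin ligase CBL from 1317, 1774 and 1767 to 287, 294 and 244.

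Of 18 glucocorticoid-responsive genes, 12 rose and 3 fell (median 1.12). TSC22D3 (GILZ), a classic glucocorticoid target, went from 2273, 1882 and 2001 to 4384, 5002 and 5875 counts, and FKBP5, another, from 40675, 36384 and 36249 to 45635, 48380 and 49491. TXNIP rose by 1.79 ± 0.10 on the log2 scale and the metallothionein MT2A went from 0, 6.59 and 4.28 to 133, 152 and 68 counts. ZFP36L2, an RNA-binding protein needed for progenitor self-renewal, fell from 27563, 26342 and 29320 to 17571, 16037 and 17208, and GLUL from 80429, 85155 and 94161 to 35144, 43061 and 41971. Dexamethasone, a glucocorticoid, was listed for the D0 medium and not for the D6 medium.

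**Figure D2:**
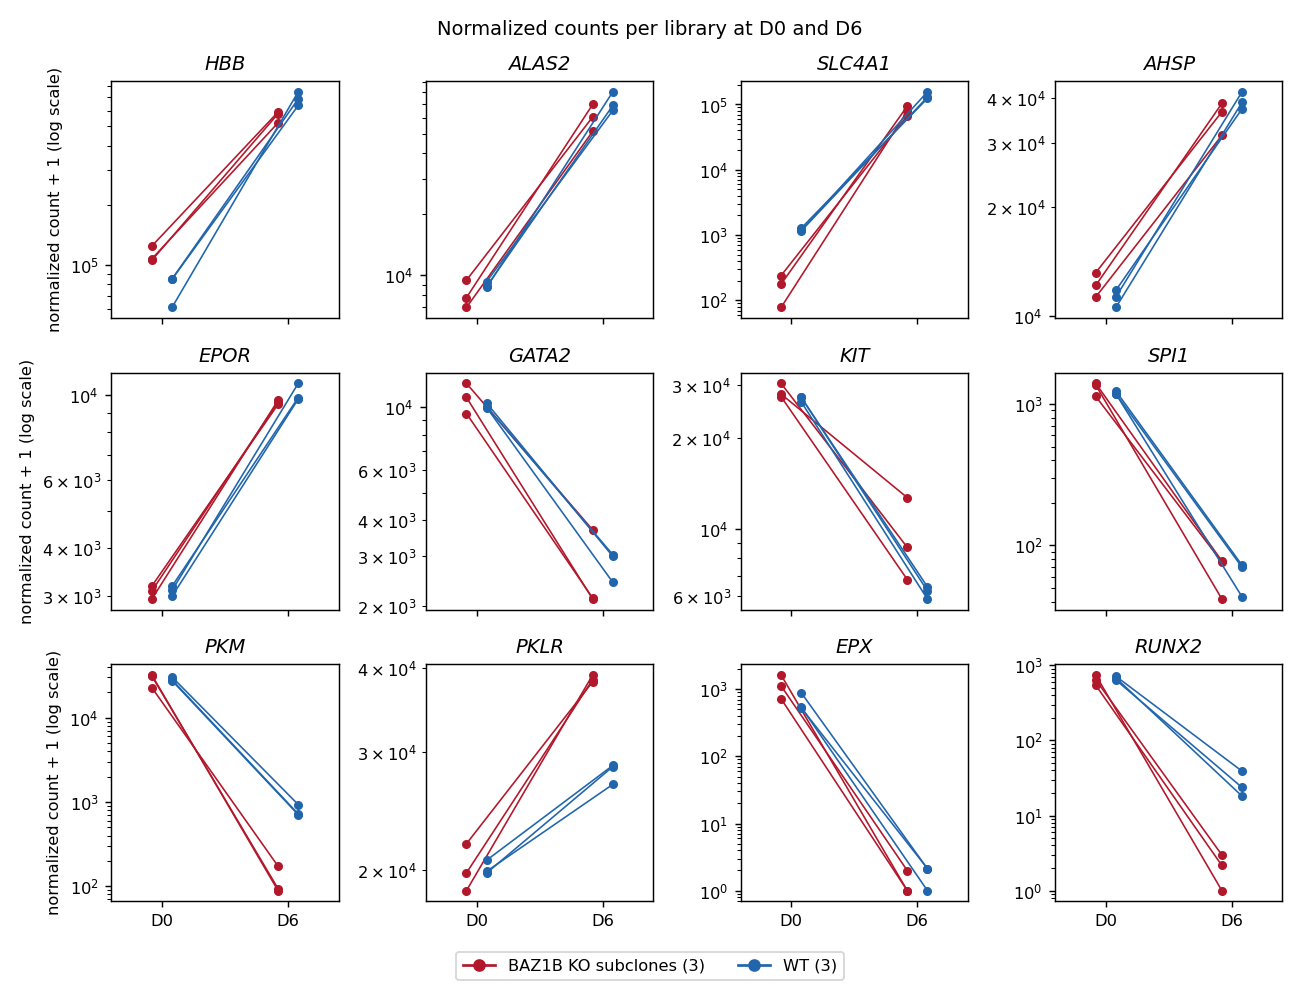
Normalized counts plus 1 on a log scale at D0 and D6 for 12 genes, with 1 line per replicate number; red, 3 BAZ1B KO subclones, blue, 3 WT cultures. EPOR overlaps between genotypes at D0, PKM and RUNX2 end lower in KO (PKM 87.9 to 172 against 706 to 931), and SLC4A1 starts lower.

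Replication and division genes rose by small steps. Of 45 DNA replication genes 41 rose and 4 did not pass, with a median log2 change of 0.45. MCM2, a subunit of the replicative helicase, went from 13405, 12566 and 12984 to 20767, 21909 and 22121 counts, PCNA from 11663, 10246 and 10610 to 15833, 16012 and 16456 and TK1, thymidine kinase, from 3349, 3056 and 3250 to 7509, 8129.7 and 8154. RRM2, a subunit of ribonucleotide reductase, rose by 0.49 ± 0.08 on the log2 scale. RPA3, a subunit of the single-strand binding protein RPA, had the largest rise of this list, from 1309, 1264 and 1328 to 3322, 3268 and 3343 counts. Of 41 mitosis genes 33 rose, with a median of 0.46. ANLN and CCNB2, of cytokinesis and of entry into mitosis, rose 2.11-fold and 2.13-fold by the ratio of means. CDK1, the kinase of mitotic entry, went from 3773, 3951 and 3846 to 6729, 6981 and 7295, while its partner CCNB1 did not pass (0.09 ± 0.06). MKI67, the proliferation antigen, was at 27259, 29157 and 28102 and then 27367, 28247 and 30774 counts and did not pass. With scaling by total counts 31 of the replication genes and 28 of the mitosis genes rose, and 2 and 3 fell.

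Regulators of G1 changed further, with 16 of 25 rising and 3 falling. CCNE1, cyclin E1, rose from 1590, 1466 and 1389 to 7176, 7444 and 7818 counts, a 5.05-fold difference in the mean. CCND3, the cyclin D of erythroid cells, went from 5138, 4341 and 4574 to 12948, 15597 and 16182, and E2F2 from 1492, 920.4 and 1057 to 3789, 3773 and 4232. CDK6, a D-cyclin kinase, went from 3207, 2526 and 2473 to 6309, 4255 and 4578 counts, highest in KO1 at both days. WT libraries held more CDK6 counts at both days, 6776, 7080 and 6590 at D0 and 7339, 8109 and 6491 at D6. On the log2 scale this WT change of 0.10 did not pass (edgeR, adjusted p = 0.52). The KO change was higher by 0.78 ± 0.19, a difference that did not pass either (edgeR, adjusted p = 0.054). In KO cells the CDK inhibitor CDKN1B (p27) rose by 0.76 ± 0.06 on the log2 scale and CDKN1C (p57), at low counts, by 1.91 ± 0.33. E2F3 and E2F5 fell by 1.04 and 1.73.

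Histone genes split by class. Of 40 replication-dependent histone genes with enough reads, 21 fell and 1 rose (median -0.94). Most of their transcripts lack a poly(A) tail, and the RNA was selected with oligo-dT beads. HIST1H4C, for instance, was at 34.5, 141 and 132 and then 54.5, 26.7 and 48.1 counts, with KO1 against the direction of the others (adjusted p 2.7e-06 to 0.081 over 20 alternatives), and HIST1H2BJ at 55.2, 93.2 and 66.3 and 18.8, 39.5 and 40.8. Among 10 replication-independent histone genes 6 rose and 3 fell. H1F0, the linker histone of nondividing cells, went from 0, 5.65 and 2.14 to 501, 1017 and 679 counts, and H1FX from 823, 959.9 and 839 to 1783, 2123 and 1999. The variant H2A.Z gene H2AFZ fell from 13297, 13832 and 13725 to 10176, 10740 and 9851, and H3F3B, an H3.3 gene, by 0.24 on the log2 scale. H2AFX, which encodes H2A.X, was at 4006, 4255 and 4093 and then 3618, 4000.5 and 3355. Its fall by 0.17 on the log2 scale passed (adjusted p = 0.018), but not without KO D0 replicate 2, KO D6 replicate 1 or KO D6 replicate 3, nor in the 6 KO libraries fitted alone (adjusted p = 0.06). Over 20 alternatives its adjusted p ran from 0.00028 to 0.1.

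A list of 16 tested genes covered H2A.X phosphorylation, at tyrosine 142 or serine 139, and ISWI remodelling complexes such as that of BAZ1B. Of these, 6 rose and 4 fell, beside 33.2% rising and 34.5% falling over all genes. The median log2 change was 0.05 and the range -1.51 to 0.55. SMARCA5, the ATPase partner of BAZ1B in the WICH remodeller, rose from 8221, 8142 and 8282 to 11141, 11197 and 11918 counts. EYA3, a phosphatase for that tyrosine, was at 3878, 3789 and 3646 and 3785, 3662 and 3918 and did not pass. The checkpoint kinase genes ATM and ATR, whose proteins phosphorylate serine 139 of H2A.X, fell by 0.36 and 0.74 on the log2 scale. With scaling by total counts 3 of the 16 rose and 7 fell.

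Of 39 caspases and chromatin condensation factors, 15 rose and 15 fell, with a median of -0.05, beside 33.2% rising and 34.5% falling over all genes. APAF1 of the apoptosome fell from 971, 1097 and 1068 to 451, 427 and 486 counts, and ACIN1 (acinus), a condensation factor cut by caspases, by 0.14 on the log2 scale. KMT5A (SETD8), which methylates histone H4, rose from 2620.4, 2416 and 2453 to 4260.3, 4398 and 4232, and the MYC antagonist MXI1 and the deacetylase HDAC5 rose by 1.57 ± 0.09 and 2.10 ± 0.10. LMNB1, lamin B1, fell from 10829, 10851 and 11042 to 8944, 8659 and 8649.8, and XPO7, an exporter of nuclear proteins in erythroblasts, did not pass (-0.02 ± 0.04). Scaled by total counts the split was 8 up and 22 down.

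BCL2 family genes rose in 9 of 19 cases and fell in 3. BCL2L1 (BCL-xL), which protects maturing erythroblasts, went from 4304, 3157 and 3768 to 6103, 5955 and 6272 counts. BAX and BIK, which promote death, fell by 1.06 and 1.88 on the log2 scale, MCL1, which blocks it, did not pass (-0.04 ± 0.03), and BAD rose by 1.23 ± 0.10. BNIP3, a mitophagy receptor, was at 660.0, 759 and 606 counts and rose to 1549.6, 1652 and 2965, highest in KO3. Total-count scaling gave 7 rising and 8 falling.

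Autophagy and mitophagy genes rose in 23 of 44 cases and fell in 10 (17 and 15 with total-count scaling). ULK1, the starting kinase, rose from 565, 487 and 517 to 1286, 1214 and 1212 counts and WIPI1 and OPTN by 2.41 ± 0.12 and 2.13 ± 0.21 on the log2 scale. BNIP3L (NIX), the receptor that clears mitochondria from reticulocytes, was at 15718, 18210 and 17507 and then 15732, 15671 and 17853 and did not pass. Lysosomal LAMP1 and LAMP2 fell by 0.64 and 0.82. Among 38 late ubiquitin enzymes 19 rose and 6 fell (14 and 14 with total-count scaling): TRIM10 went from 13.8, 0.941 and 4.28 to 1982, 3908 and 3548 counts, TRIM58 from 4336, 4457 and 4366 to 6266, 7122 and 6896 and UBE2O, which breaks down ribosomal proteins in reticulocytes, from 2142, 1933 and 1877 to 3707, 3847 and 3655.

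Cytoplasmic ribosomal protein genes rose together, 72 of 78 with a median log2 change of 0.45 and 2 falling. RPL3 and RPL10 rose by 0.85 ± 0.05 and 1.12 ± 0.06. Scaled by total counts 62 rose and 5 fell. Ribosome biogenesis genes rose in 14 of 54 cases and fell in 24 (7 and 36 with total-count scaling), beside 33.2% and 34.5% over all genes. NPM1 (nucleophosmin) was at 61688, 55804 and 56349 counts at D0 and 53296, 48795 and 50536 at D6. UBTF, a factor of RNA polymerase I, rose from 7316, 6662 and 6802 to 14429, 14238 and 14032, and MYC from 26543, 21173 and 22887 to 31080, 27967 and 28511, a rise that was lost with scaling by total counts (adjusted p 1.4e-09 to 0.12 over 20 alternatives). Of 15 genes of the mitochondrial genome 7 fell, and 13 with total-count scaling. MT-CYB went from 95821, 128600 and 107340 to 78081, 60203 and 77801 counts, most in KO2. The nuclear respiratory chain genes rose in 25 of 53 cases and fell in 7 (13 and 22 with total-count scaling).

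Of 27 glycolysis and pentose phosphate genes, 12 rose and 12 fell, beside 33.2% rising and 34.5% falling over all genes. PKM (chr15:72199029-72231819, minus strand), the pyruvate kinase of most tissues, fell from 22701, 31164 and 32045 counts to 172, 92.8 and 87.9, 240-fold in the mean (log2 change -7.91 ± 0.23, adjusted p = 2.4e-11). PKLR, the pyruvate kinase of red cells, rose from 21913, 18660 and 19829 to 38164, 39052 and 38430. Of the glucose transporters, SLC2A3 fell from 304, 219 and 291 to 2.97, 2.32 and 3.14 and SLC2A1 rose from 3101, 2471 and 2637 to 15150, 16538 and 17944. PFKM, a phosphofructokinase, rose 6.66-fold, and BPGM, which makes the bisphosphoglycerate that lowers the oxygen affinity of hemoglobin, went from 538, 538 and 559.7 to 1801, 1841 and 1994.

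Antioxidant enzyme genes rose in 10 of 26 cases and fell in 12, beside 33.2% rising and 34.5% falling over all genes. PRDX2, a peroxiredoxin abundant in red cells, went from 28352, 29166 and 28284 to 118570, 131630 and 138370 counts and catalase, CAT, from 9789, 8918 and 8852 to 22694, 24317 and 25819. GPX1 fell by 0.69 on the log2 scale, and the quinone reductase NQO1 dropped from 293, 229.6 and 306 to 20.8, 11.6 and 11.5. Cholesterol and fatty acid genes rose in 17 of 30 cases and fell in 6 (12 and 9 with total-count scaling). SREBF1, a master factor of lipid synthesis, rose from 5132, 6259 and 6142 to 14617, 19846 and 18379 and SCD, a fatty acid desaturase, from 27113, 31015 and 31368 to 42157, 73150 and 72205, with KO1 lowest at D6 in both. MVD, an enzyme of the mevalonate pathway, rose by 1.43 ± 0.10 on the log2 scale and PMVK, of the same pathway, fell by 0.61. Of 27 ATF4 and amino acid response genes 17 rose and 6 fell (13 and 8 with total-count scaling). ATF4 rose by 0.53 ± 0.05 on the log2 scale, ATF3 went from 25.6, 19.8 and 19.3 to 132, 195 and 182 counts and TRIB3 fell from 535, 537 and 552 to 219.9, 339 and 281. GDF15, a growth factor released by maturing erythroblasts, rose from 97.5, 53.6 and 88.8 to 304, 189 and 307.

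Genes of mast cells and eosinophils fell. All 10 tested members of that marker list, out of 19 listed, were DEGs down, by 2.02 or more on the log2 scale. Their median log2 change was -5.35. Members near 0 at D6, such as EPX and CPA3, had enough reads to be tested only through D0 libraries, so only a fall could be called. EPX, eosinophil peroxidase, fell from 1122, 721 and 1631 counts to 0.991, 0 and 0, and CPA3, mast cell carboxypeptidase, from 77.8, 127 and 163 to 0, 0 and 1.05. SIGLEC6, a surface lectin of mast cells, went from 2039, 2885 and 3163 to 19.8, 33.7 and 8.37. The tryptase genes TPSAB1 and TPSB2, close copies, still had reads at D6: TPSB2 was at 963, 361 and 315 after 11311, 9244 and 12427 at D0, highest in KO1. Fitted log2 values of genes near 0 at D6, EPX and CPA3 among them, depend on a prior count and are no bounds, and neither is a list median that includes them. These markers fell beside the rise of the erythroid lists in every subclone, and their part in other changes was not tested.

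Granulocyte and monocyte markers fell in 5 of 6 tested cases, out of 18 listed. Progenitor markers fell in 5 of 6, out of 15 listed, and the other rose as a DEG, by 4.58 on the log2 scale. CEBPE, a granulocyte factor, went from 52.2, 233 and 165 to 0, 1.16 and 1.05 counts and LYZ, lysozyme, from 63, 214 and 139 to 0.991, 2.32 and 0, and both were lowest in KO1 at D0. Like EPX and CPA3, they could be tested only through their D0 reads. CRHBP, a marker of stem cells, fell from 221, 136 and 169 to 21.8, 6.96 and 2.09. Among 4 megakaryocyte markers, ITGA2B (CD41) fell from 2542, 1290.2 and 2041 to 176, 117 and 53.4 and TUBB1 rose from 70.9, 54.6 and 64.2 to 267, 172 and 187.

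Across all genes, the 8 largest rises among well measured DEGs (mean of 200 or more, D0 and D6 not overlapping) were C17orf99, SLC4A1, TRIM10, FBLN2, ALPL, H1F0, LTBP1 and SYBU. C17orf99 went from 3.94, 1.88 and 1.07 to 1915, 1476 and 2139 counts. LTBP1, which anchors latent TGF-beta, rose from 15.8, 3.76 and 4.28 to 2153, 1881 and 2311, and ALPL, tissue-nonspecific alkaline phosphatase, from 0.985, 5.65 and 3.21 to 555, 1213 and 971. SYBU and FBLN2 ended at 361, 1083 and 704 and 174, 595 and 445 counts from fewer than 4 in every D0 library, and in both KO1 was lowest at D6.

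The 8 largest falls were GPR85, EPX, MYO1F, RUNX2, PKM, FBXO41, IKZF2 and IGFBP4. RUNX2, a factor of bone and of some blood lineages, dropped from 642, 544 and 743 to 1.98, 1.16 and 0 counts. IKZF2 (Helios), a lymphoid factor, fell from 2693, 2806 and 3383 to 16.8, 5.8 and 15.7. MYO1F, a myosin of white cells, went from 1002, 970.2 and 1199.6 to 0, 1.16 and 0, and GPR85 had no read left in any KO library at D6 after 154, 998 and 546 counts at D0. In all, 29 genes with a mean of 100 or more at D0 were left with at most 3 reads in each KO library at D6. In WT 12 genes met the same condition, 8 of them in common with KO. These counts depend on both limits. AL662860.1, CEBPE, MAS1LP1 and OR2I1P had no read in any WT library at D6 but a WT mean below 100 at D0. LRRC3B narrowly missed the limit at D6, with 2.23, 4.53 and 3.02 counts in WT, whereas RUNX2 was at 37.9, 22.6 and 17.1. At the other end, 13 genes with a mean of 100 or more at D6 had at most 3 reads in each KO library at D0, against 8 in WT and 4 in both.

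Which of these changes were kept was read from the difference between the KO change and the WT change, in a fit of all 12 libraries. A change was called kept within 2-fold where the 95% interval of that difference lay between -1 and 1 on the log2 scale, a condition met by 10085 genes, or 72.7% of all tested. Of the 1593 KO DEGs, 665 (41.7%) were kept in this sense, 256 of 541 rises and 409 of 1052 falls. The median width of the interval was 1.55 among DEGs and 0.56 among all genes. The change also differed between genotypes, by the test given below for all genes, in 85 of the KO DEGs (5.34%) against 2.47% of all tested, although the DEGs were chosen by their KO change. Of 273 KO DEGs that fell by more than 4 on the log2 scale 32 differed, each with the KO change the lower, and of 168 such falls chosen in WT 11 differed, 10 of them with the KO change the lower. With a limit of 1.5-fold 305 DEGs were kept. DEGs of KO and WT coincided in direction and call in 1293 genes, 81.2% of the KO DEGs and 79.5% of the 1627 WT DEGs. Changes of the 13879 genes correlated between genotypes with Pearson r = 0.922 and Spearman rho = 0.91; genes are not independent replicates, and the 12 libraries share their normalization.

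Over all genes, 3899 of 4604 rises (84.7%) and 3470 of 4788 falls (72.5%) were kept within 2-fold. Being kept does not mean that no difference passed, and 163 of the genes whose KO change was significantly higher than in WT and 63 of those in which it was lower were kept. By list, all 41 DNA replication genes that changed in KO were kept, although 1 of them, RPA3, differed from WT. The 74 ribosomal protein genes and 9 heme enzymes that changed in KO were all kept as well. So were 30 of 30 changed caspase and condensation genes, 33 of 37 membrane genes, 27 of 28 transcription factors, 20 of 21 signalling genes and 16 of 18 genes of iron handling, although 2, 5, 3 and 1 tested members of the caspase, membrane, transcription factor and signalling lists differed from WT. Lower counts were 5 of 10 in the globin list with AHSP, 17 of 23 ATF4 genes, 9 of 12 BCL2 family genes and 0 of 5 granulocyte and monocyte markers. The intervals of the difference from WT were -0.46 to 0.28 for ALAS2, -0.20 to 0.09 for GATA1 and -0.21 to 0.07 for EPOR. Among mast cell and eosinophil markers 1 of 10 could be placed within 2-fold and among replication-dependent histone genes 6 of 22, with list medians of -5.35 in KO against -3.74 in WT for the former and -0.94 against -0.47 for the latter.

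**Figure D3:**
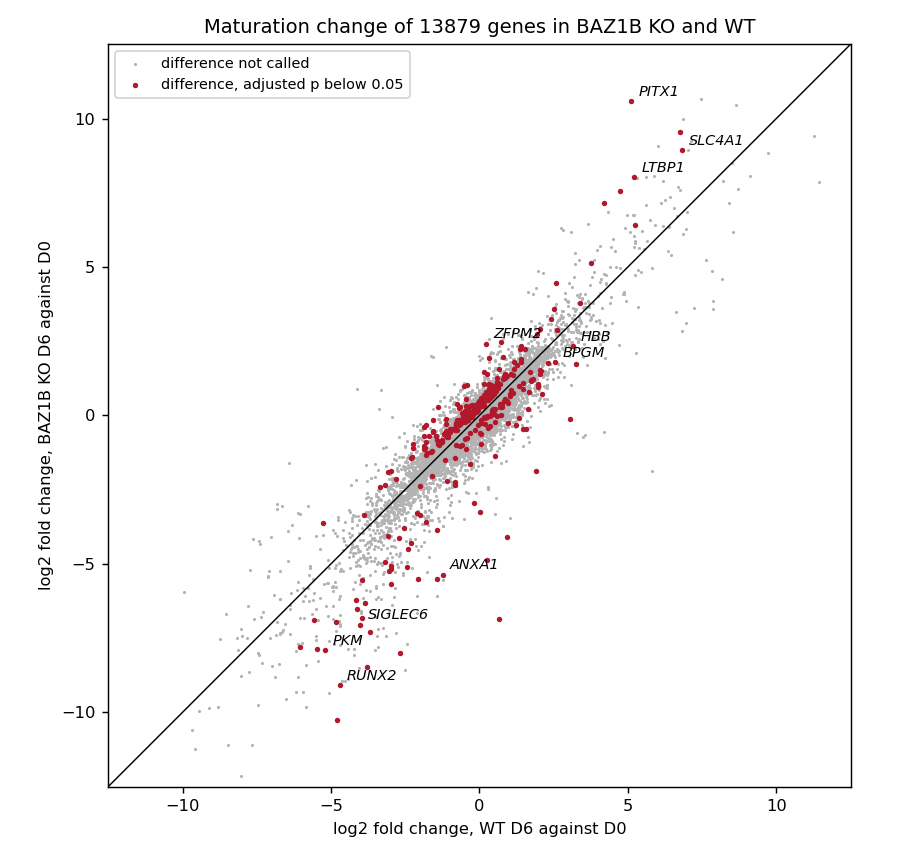
Each point is 1 of 13879 tested genes, with the log2 fold change from D0 to D6 in WT on the horizontal axis and in BAZ1B KO on the vertical axis; red points differ between genotypes at an adjusted p below 0.05 and the line marks equal change. Most genes lie along the line (r = 0.922), while PKM, RUNX2 and ANXA1 lie below it and SLC4A1, LTBP1 and PITX1 above it.

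The difference itself passed the test in 343 genes. The KO change was the higher in 219 (1.58% of all tested) and the lower in 124 (0.893%). With the subclone number as a term of the fit these counts were 426 and 292. They also hung on single libraries, from 78 and 41 at the lowest (without WT D0 replicate 2 and replicate 1) to 477 and 288 without KO D0 replicate 1. Of the 219, 70 fell in both genotypes, less in KO, 66 rose in both, more in KO, 37 fell in WT and did not pass in KO, 26 rose in KO and did not pass in WT, and 20 rose in KO while falling in WT. The gap between genotypes was wider at D6 than at D0 for 171 of the 219 and for 112 of the 124.

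Of the deeper falls, PKM had the highest counts at D0. Its KO libraries reached 172, 92.8 and 87.9 counts at D6, while WT, from 30303, 28083 and 27476 at D0, reached 931, 719.7 and 706. The difference of the log2 changes was -2.72 ± 0.27 (adjusted p = 4.7e-04). SLC2A3, RUNX2, SIGLEC6 and FBXO41 likewise ended lower in KO than in WT. RUNX2 was at 37.9, 22.6 and 17.1 counts in WT at D6 against 1.98, 1.16 and 0 in KO, and the difference passed (adjusted p = 0.0033); with so few KO reads its fitted size depends on the prior count. ANXA1, an inhibitor of phospholipase A2, fell to 65.4, 16.2 and 8.37 counts in KO and to 575, 403 and 415 in WT. These 6 genes kept the call under each of the 18 alternative fits, which included leaving out every library in turn.

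Other genes rose less, or did not rise, in KO. BPGM reached 1801, 1841 and 1994 counts at D6 in KO and 2909.5, 2853 and 3340.1 in WT, a difference of -0.77 ± 0.10 (adjusted p = 0.0028). ARG2, a mitochondrial arginase, was at 163, 174 and 203 and then 149.6, 147 and 138 in KO but went from 229, 186 and 216 to 444, 467 and 558 in WT. For HBB, WT stood at 85138, 84905 and 61201 counts at D0 and 686360, 636320 and 745570 at D6. KO was the higher at D0 (0.55 on the log2 scale, adjusted p = 0.0155), while at D6 the gap of -0.29 did not pass (adjusted p = 0.111). Its difference of -0.84 ± 0.16 passed (adjusted p = 0.018), but not without KO D0 replicate 3 or without WT D6 replicate 3, and over 17 alternatives the adjusted p ran from 8.4e-30 to 0.053. GDF15 was at 67.6, 67.2 and 77.6 counts in WT at D0 and 626, 552 and 855 at D6, so the rise of KO libraries to 304, 189 and 307 was the smaller (difference -1.51 ± 0.34, adjusted p = 0.039). This call was kept in only 9 of 18 alternatives: of the fits that left out 1 library it held without KO D0 replicate 2, KO D6 replicate 1 or KO D6 replicate 2, and the adjusted p reached 0.112.

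TRIM67 differed by its start, at 324, 96.9 and 204 counts in KO and 17.4, 16.4 and 15 in WT at D0, and by D6 the genotypes overlapped (31.7, 20.9 and 12.6 and 22.3, 12.4 and 15.1); its call was kept in 11 of 18 alternatives. C3AR1, a complement receptor, and the pseudogene LILRP1 had fewer than 3 reads in each KO library at D6. C3AR1 had no read in KO at D6 and 3.35, 7.92 and 4.03 counts in WT, after 122, 125 and 213 and 129, 149.9 and 157 at D0. The calls of C3AR1 and LILRP1 were kept in 9 and 12 of 18 alternatives, and were lost only when 1 library was left out.

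Several steeper rises in KO began from a lower D0. SLC4A1 was at 1163, 1277 and 1178 counts in WT at D0, above each KO library, and at 129830, 124020 and 156350 at D6, above the KO values again. Its difference of change was 2.11 ± 0.32 (adjusted p = 0.0053). PITX1, a limb and pituitary factor, had no read in KO at D0 and 148, 221 and 206 counts at D6, against 43, 37.9 and 38.8 and 1354, 1249 and 1517 in WT. LTBP1, FRMD4A and ZFPM2 were alike in being lower in KO at D0. At D6 ZFPM2 (FOG2) stayed lower, at 43.6, 29 and 39.8 counts against 247, 260.3 and 245. LTBP1 stayed lower too, by 1.24 on the log2 scale (edgeR, adjusted p = 9.3e-06), while for FRMD4A the D6 gap of -0.21 did not pass (adjusted p = 0.53). PKLR differed by a higher D6 value instead, 38164, 39052 and 38430 counts in KO against 28649, 26852 and 28537 in WT. These 6 genes kept the call under all 18 alternatives.

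Lipid synthesis genes held 9 differences among 30 tested members, with the KO change the higher in each. Among them were HMGCS1, named by rule, and ACAT2, LSS, EBP, DHCR7, FASN and ELOVL6, named after their values were seen. HMGCS1, which makes HMG-CoA for the mevalonate pathway, held 20804, 16998 and 16956 counts at D0 and 22532, 23209 and 20112 at D6 in KO, against 20709, 21629 and 21455 and 17308, 16242 and 16220 in WT. Its KO rise alone was lost with total-count scaling (adjusted p 2.9e-07 to 0.34 over 20 alternatives). FASN, fatty acid synthase, rose from 22436, 22442 and 24025 to 35114, 56868 and 52055 in KO, with KO1 lowest, and stood at 24305, 23042 and 22365 and 25769, 23326 and 27956 in WT. The count of 9 fell to 1 without WT D6 replicate 2 and rose to 14 without KO D6 replicate 1. The list median was 0.22 in KO and -0.09 in WT.

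Genes that the study singled out for BAZ1B loss were chosen on these samples, so their differences between genotypes are not independent evidence. During maturation 6 of these 9 fell in KO and 1 rose. RELN, reelin, went from 52619, 56074 and 51388 to 42397, 36847 and 48788 counts, SOX4 from 239, 780.1 and 573 to 24.8, 25.5 and 23 and RYR3, a calcium release channel, from 651, 652 and 731 to 111, 24.4 and 67. SELENON (SEPN1) fell from 1407, 1633 and 1526 to 430.0, 756 and 519, and TBX20 from 91.6, 109 and 104 to 63.4, 31.3 and 31.4.

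The 3 KO subclones followed the programme to different extents. Deviations of same-numbered D0 and D6 libraries from their group means correlated across 8441 genes at 0.501 for KO1, 0.579 for KO2 and 0.106 for KO3. That correlation measures how far a subclone's own offset lasted from D0 to D6, not how far its genes changed between the days. The extent of change was read from list medians within each subclone. KO1 fell least in the genes of other lineages: the median within-subclone log2 change of mast cell and eosinophil markers was -3.72 in KO1, -4.93 in KO2 and -5.52 in KO3, and that of progenitor markers -0.95, -2.08 and -2.02. In KO2 the genes of the mitochondrial genome had a median of -0.67, against -0.03 in KO1 and -0.15 in KO3. Heme enzymes lay close together, at 1.41, 1.54 and 1.58.

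**Figure D4:**
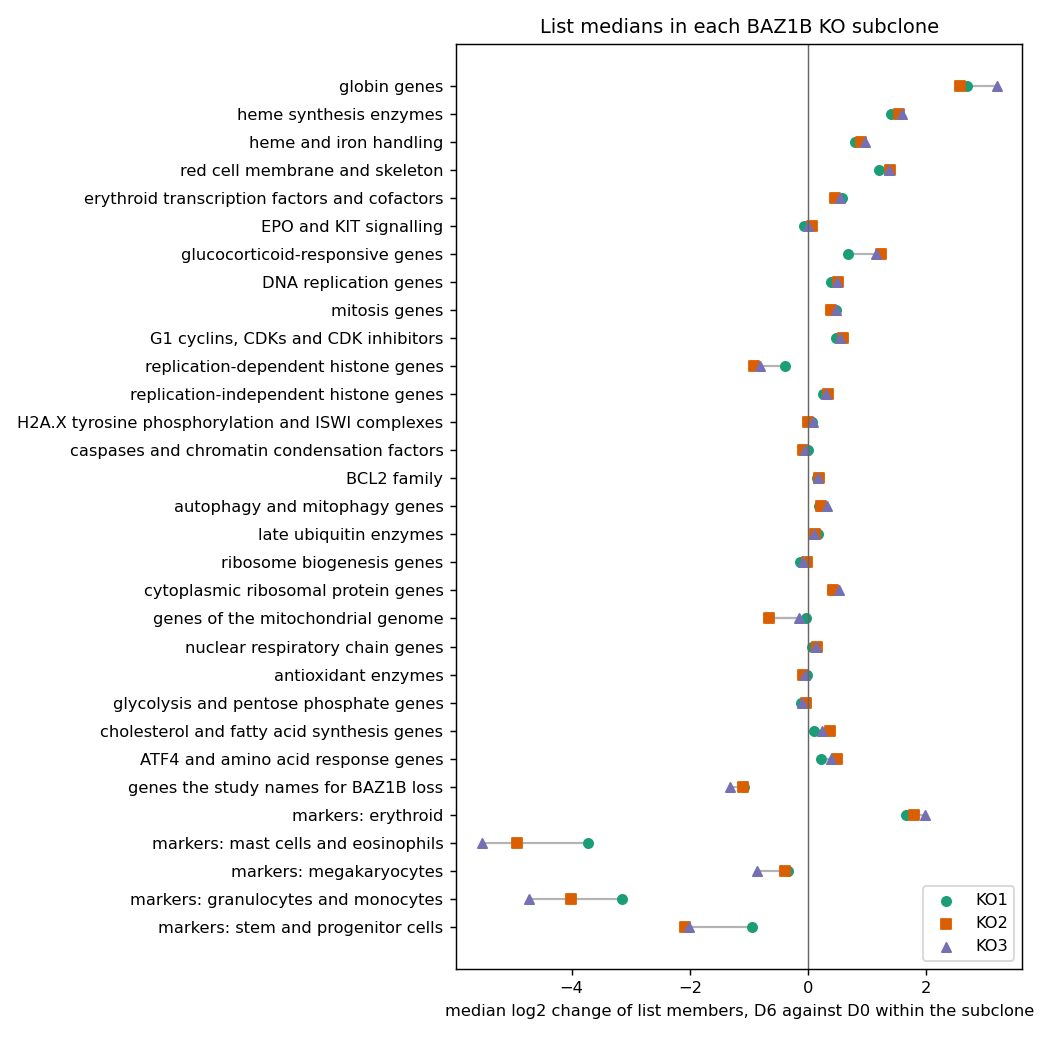
Median log2 change from D0 to D6 of the tested members of each gene list within each BAZ1B KO subclone (circle KO1, square KO2, triangle KO3), computed with a prior count of 2. Heme, membrane and replication lists differ little between subclones, whereas mast cell markers range from -3.72 in KO1 to -5.52 in KO3.

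The genes with the widest spread of change between subclones were DZIP1, KRT19, STRIT1 and ANXA1. KRT19, a keratin, was at 1212, 0 and 746 counts at D0, so that KO2 lacked it. STRIT1 was at 0, 658 and 321 and then 27.7, 758 and 292 counts and had no read in the 6 WT libraries. DZIP1 was at 2.96, 841 and 434 and then 11.9, 266 and 91.1, nearly absent from KO1 at both days. ANXA1 was highest in KO1 at D6 and lowest there at D0. Of the 181 genes named by rule that passed the D6 against D0 test, 178 changed in the same direction in all 3 subclones, the exceptions being HBG1, HIST1H4C and KRT19.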

How the data were processed

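RNA-Seq was carried out on HUDEP-2 cells, and the 12 libraries of the BAZ1B experiment were analysed here, grouped by the labelled genotype and day. The deposited table holds raw read counts per gene and library. According to the submitters' processing notes and the methods, the authors used STAR 2.7.0f, Subread 1.6.4 (featureCounts) and hg38, and the methods name GENCODE 31 as the annotation. The labels name the TruSeq kit V2 and 100 nt reads, whereas the methods name a stranded kit and other read lengths, so reads of overlapping or antisense genes and of near-identical copies may be misassigned.

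Counts were analysed as deposited with R 4.3.3 and edgeR 4.0.16 (limma 3.58.1): filterByExpr (minimum count 10), TMM normalization and the quasi-likelihood test, with 1 coefficient per genotype and day and Benjamini-Hochberg adjustment over 13879 genes. Contrasts were D6 minus D0 in KO, the same in WT, and their difference. A change was called at an adjusted p below 0.05 and a DEG at 0.001 with an absolute log2 change over 1.5. The fits were tested on simulated counts that had the same spread in every library and no link between same-numbered libraries. The unequal spread of KO and WT was therefore not covered. Replicate pairs within a group differed by more than counting noise (chi-square per degree of freedom 2.91 to 36.3).

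KO replicate numbers name subclones. Deviations of same-numbered D0 and D6 libraries correlated over 8441 genes at r = 0.501 in KO1, 0.579 in KO2 and 0.106 in KO3. In WT the values were 0.206, -0.0471 and 0.153, so KO1 and KO2 lay above every WT value and KO3 did not. Results are from the fit without the replicate block. Alternatives were DESeq2 1.42.0, upper-quartile and total-count scaling, no filter, and no globin genes or AHSP. Others were the replicate block, KO libraries alone, other cutoffs and leaving out each library. Named genes were the key genes of each list, up to 2 rises and 2 falls per list (mean count 50 or more), the 8 largest rises and 8 largest falls (200 or more), the 6 largest differences between genotypes in each direction (50 or more) and the 4 widest ranges between subclones (200 or more). Members, lists and rules were chosen with earlier results of these data known. Of 59087 gene names, 36434 matched a later GENCODE release on GRCh38 directly and 759 by an older name listed in RefSeq. Some genes that the rule names are not reported here.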

Additional observations from a re-analysis of the deposited data

Results flagged for a closer look

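For 35 of the genes named by rule, the change from D0 to D6 differed between genotypes (edgeR, interaction contrast, adjusted p below 0.05). Values are KO minus WT on the log2 scale, each from 3 libraries per group. The 16 genes that kept this call under all 18 alternatives were PITX1 (5.48), FRMD4A (2.95), LTBP1 (2.82), ZFPM2 (2.19), SLC4A1 (2.11), HMGCS1 (0.624), PKLR (0.462), ZFP36L2 (0.376), BPGM (-0.773), ARG2 (-1.53), SLC2A3 (-2.4), FBXO41 (-2.41), PKM (-2.72), SIGLEC6 (-3.04), ANXA1 (-4.15) and RUNX2 (-4.37).

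The other 19 lost the call in at least 1 alternative. Among them the KO change was the higher for GLIPR2 (2.82), C17orf99 (2.8), SELENON (0.894), BNIP3L (0.388), MYB (0.376), CD44 (0.311), CD36 (0.274) and RPA3 (0.224). It was the lower for MCL1 (-0.192), CDK1 (-0.209), RHAG (-0.329), ULK1 (-0.548), HBB (-0.84), TRIB3 (-1.01), GDF15 (-1.52), IKZF2 (-1.75), TRIM67 (-3.28), LILRP1 (-3.59) and C3AR1 (-5.45). C3AR1, RUNX2, LILRP1, FBXO41 and SLC2A3 had at most 3 reads in each KO library at D6, and PITX1 and GLIPR2 at D0, so their fitted values depend on the prior count. SLC14A1, ACAT2, LSS, EBP, DHCR7, FASN and ELOVL6, named after their values were seen, also differed and are not among the 35. IKZF2 lost the call without WT D6 replicate 1 and without WT D6 replicate 2. MCL1 and RPA3 lost it with the replicate block (adjusted p = 0.066 and 0.051).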

How the results depend on the processing

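Counts of changed genes and DEGs in KO were within 1.5 times of those reported under DESeq2, both other scalings, no filter, no globin genes, the replicate block and the KO libraries alone. A cutoff of adjusted p below 0.05 and log2 1 gave 1225 DEGs up and 1968 down, and a limit of 1.5-fold left 305 kept. Leaving out 1 library gave 470 to 563 DEGs up, 882 to 1148 down, 4334 to 4627 rises, 4542 to 4860 falls and 599 to 708 kept.

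Differences between genotypes were less stable. DESeq2 called 445 higher and 253 lower, no filter 608 and 379, and the replicate block, a paired fit in which KO numbers stand for subclones, 426 and 292, against 219 and 124. Leaving out 1 library gave 78 to 477 higher and 41 to 288 lower. The paired fit also raised the KO DEGs to 561 up and 1106 down. Total-count scaling reversed the small changes of CD44 (-0.01237), EYA3 (-0.1669), FTL (-0.1355) and MKI67 (-0.1422), and the list medians of the BCL2 family (-0.006477), late ubiquitin enzymes (-0.06087) and nuclear respiratory chain genes (-0.06639), since this scaling lowers all changes together (the median over all genes moved from -0.023 to -0.196). BNIP3L, CDKN2D, EYA3, FTL, MAEA, MCL1, MKI67, STAT5B and XPO7, which did not pass, were called lower with that scaling alone. Among the named genes that passed in KO, CCND2, CD44, CYP27B1, H2AFX, HBG1, HIST1H4C, HMGCS1, KRT19, MYC, NCL and RPL23 lost the call in at least 1 alternative. Of 35 differences of genes named by rule, leaving out 1 library lost between 2 (KO D0 replicate 1) and 17 (WT D0 replicate 3). Only 3 libraries per group, and at most 3 reads at one day for some genes, limit the size that can be given to the deepest falls.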

Other observations

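A few list members not described above also changed in all 3 KO subclones. RANBP10, a factor of microtubule organisation, rose from 2220.5, 2098 and 2129.6 to 6176, 7664 and 7457 counts, and RIOK3, an atypical kinase of late erythroblasts, from 2749.5, 2519 and 2509.5 to 4421, 4399.7 and 4911. PPP1R15A (GADD34), which lifts the block on translation set by eIF2 alpha kinases, rose by 1.01 ± 0.06 on the log2 scale, while XBP1, a factor of the unfolded protein response, fell from 3573, 2988 and 3108 to 2017, 2153 and 2077. The kinase gene PRKCD fell from 612, 682 and 630.3 to 215, 218 and 173. In each of these 5 genes the D0 and D6 values of KO cells did not overlap, and their differences from the WT change had adjusted p of 0.17 to 0.76 (edgeR).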
